A study of Capra hircus with 6 samples.

Results

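Of 13950 distinct circular RNAs (circRNAs) listed in 6 libraries of goat ovarian follicles, 413 (2.96%) carried neither an exon nor an intron in the deposited annotation of any library. They were chosen by that rule alone, as distinct combinations of sequence, start, end and strand, and are called circRNAs without a listed feature. The tissue was pre-ovulatory follicles of Boer and Macheng black goats (Capra hircus), with 3 libraries per breed. Goats of both breeds cycled normally and received PMSG (1000 IU), a mare gonadotropin that stimulates follicles, and hCG (500 IU), a hormone that acts like luteinizing hormone at ovulation. No untreated goats enter any comparison. Total RNA was depleted of ribosomal RNA before sequencing, and the labels give no age. Only circRNAs were listed, so the level of follicle marker genes could not be checked. Listed back-splice reads per library ranged from 23480 to 74796, over 3347 to 7005 circRNAs.

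A circRNA forms when the spliceosome joins a downstream splice site to an upstream one, which leaves a closed ring without a cap or a poly(A) tail. Most known circRNAs hold exons of protein-coding genes and resist exonucleases, so they can persist in cells that divide little. The read that gives a circRNA away crosses the back-splice junction, where the 2 ends of the ring meet. Reads that lie at the same place without crossing it, called non-junction reads here, come from linear transcripts or from within the ring.

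The missing feature went hand in hand with the read counts. All 560 entries without a feature had 0 non-junction reads, and each of the entries with a feature had at least 1. An entry is 1 circRNA in 1 library, and the 6 files held 28870 of them. A further 25 circRNAs carried a feature in some libraries and none in others, in 91 entries. In the 39 entries without a feature they had 0 non-junction reads, and in the 52 entries with one they had 1 to 9 (median 2). Both the label and the number of non-junction reads therefore changed together for the same back-splice.

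Of those 25 circRNAs, which are not counted among the 413, 10 lay in a gene with a usable identifier. ANO1, which encodes a calcium-activated chloride channel, is the clearest case. Its circRNA at chromosome 29, 45212806 to 45213680, had 10, 5 and 4 back-splice reads in Boer 1, 2 and 3 and 3, 7 and 4 in Macheng black 1, 2 and 3. The gene was named in Boer 3 alone, the library with 1 non-junction read, while the other 5 libraries had 0 and no feature. PPP6R2, a regulatory subunit of protein phosphatase 6, showed the same at scaffold KB010263.1, 89422 to 91130. It had 5, 3 and 10 back-splice reads in Boer and 10, 6 and 8 in Macheng black, and its gene was named in Macheng black 1 alone, again with 1 non-junction read. The others were circRNAs of LAMC1, a laminin chain of basement membranes, JAG2, a Notch ligand, GYS1, the muscle form of glycogen synthase, PHLPP1, a phosphatase of the kinase AKT, THADA, UBP1, ZFP37 and LOC102188534.

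**Figure D1:**
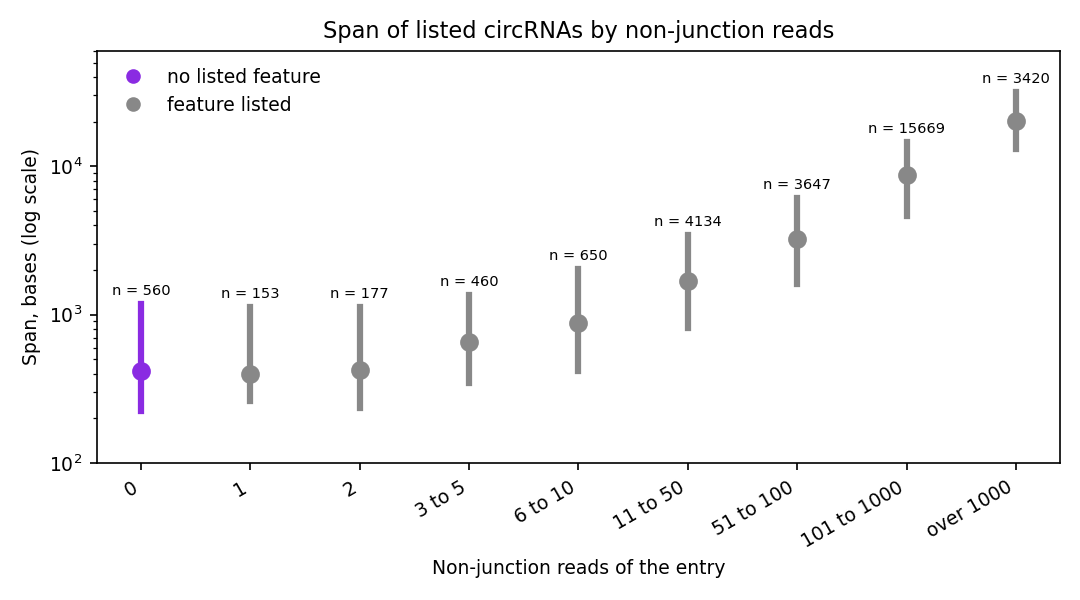
Span of the circRNA in bases (log axis) against the non-junction reads of the entry, with the median as a point and the quartiles as a line over all entries of the 6 libraries. The 560 entries with 0 non-junction reads, which are those without a feature, have a median span of 415.5 bases, close to the 401 and 424 bases of entries with 1 and 2 reads, and the median reaches 20115 bases in entries with over 1000.

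The files do not show that these circRNAs lie outside genes. Of the 413, 294 (71.2%) overlapped an exon or intron that the same files listed for another circRNA, and 165 (40.0%) did so on their own strand. For most of them the interval belongs to an identifier that was set aside, because it was listed on several sequences or with a part over 1 Mb, so whether they lie in a gene is not settled by these files. The remaining 119 (28.8%) lay outside every listed exon and intron on both strands. At a median of 604 bases they were longer than the 294, whose median was 317 bases, and they held 46.4% of the back-splice reads of all 413. Of the 119, 41 (34.5%) were on sequences not named as a chromosome. Over the 413, those on such sequences had a median of 697 bases, against 356 on chromosomes, and held 36.2% of the reads. The contrast is therefore mixed with placement.

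Only 4 of the 413 overlapped a listed part of a gene with a usable identifier on their own strand. Of the 13537 others, 2061 (15.2%) did so, counting parts listed for the circRNA itself. For 11476 of the 13950 circRNAs (82.3%), all listed identifiers had been set aside. The 4 were circRNAs within PHLPP1, PDLIM5, CDK5RAP2, which encodes a centrosomal protein, and LOC102169433, with 2 or 3 reads each. Another way to tie a ring to a gene is its edge. In 7 of the 413 (1.69%), an end fell exactly on the edge of a listed part on the same strand, against 1500 of the 13537 other circRNAs (11.1%). The others can match a part listed for themselves, which the 413 cannot, so these shares are not on equal terms. At chromosome 12, 80871243 to 80871652, both ends met introns of ARHGEF7, an exchange factor for Rac and Cdc42, so the 410 bases fill the gap between a pair of listed introns. At chromosome 17, 10151723 to 10151953, the first base followed a listed intron of ARHGAP10. This ring of 231 bases had 4, 0 and 3 reads in Boer and 4, 2 and 0 in Macheng black. The circRNA of chromosome 23, 46778740 to 46779290, met an intron of CDYL, which encodes a chromodomain protein, and that of chromosome 13, 6282285 to 6292197, met one of ISM1, which encodes the secreted protein isthmin. The last 3 met introns of CDK5RAP2, PPP1R12B, a regulatory subunit of myosin phosphatase, and LOC102174924. These 7 were chosen after their values were seen.

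Opposite strands were a second common setting. A circRNA with a listed feature lay across from 44 of the 413 (10.7%) and on the opposite strand only, while this held for 121 of the 13537 others (0.894%). Overlap with such a circRNA on the same strand rules this out. Same-strand overlap was found for 8299 of the others (61.3%) and 25 of the 413 (6.05%), so fewer of the others could count. The 44 include the 13 of the chromosome 29 region described below. For 12 of the 413, the part across belonged to a gene with a usable identifier. DENND1B, which encodes an exchange factor for Rab GTPases, had 3 of them across from it, at chromosome 16, 74126140 to 74126535. COL12A1, a collagen of the extracellular matrix, had 2, and CLTC, the clathrin heavy chain, and KLHL2, an adaptor of a ubiquitin ligase, had 1 each. The sources used here do not say how strand was assigned, so reads of a gene and of its antisense partner cannot be told apart here.

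By sequence, the 413 were spread over all 30 chromosomes and 28 unplaced sequences. Sequences that the files do not name as a chromosome, called unplaced here, carried 44 of them (10.7%), against 83 of the 13537 other circRNAs (0.613%). Of the 44, 40 were on sequences named KB, 2 on sequences named AJPT and 2 on GU295658.1, whose kind the files do not give. Put the other way, 34.6% of the 127 circRNAs on unplaced sequences had no listed feature, against 2.67% of the 13823 on chromosomes. On 15 of the 57 unplaced sequences every circRNA was without a feature. In each library, between 10.1% and 21.9% of the listed circRNAs without a feature were on unplaced sequences, against 0.509% to 0.734% of the others. The mean difference was 17.0 percentage points ± 4.19 (SD, n = 6 libraries, higher in 6 of 6; exact sign-flip permutation test, two-sided, p = 0.0312, the smallest that 6 libraries allow). It was 52.9 points among circRNAs with at least 5 reads in the library, and 15.8 points against others with 1 to 5 non-junction reads. The libraries are not independent here, since the place of a ring is the same in each and rings recur. Of those on unplaced sequences, 27.3% were listed in 3 or more libraries, against 3.52% of those on chromosomes. The rule picks circRNAs that lack annotation, so placement is not independent of how they were chosen.

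Among chromosomes, chromosome 29 had the most, 24 of its 319 circRNAs (7.52%), and 13 of the 24 lay in 1 crowded region described below. Chromosome 18 followed with 19 of 285 (6.67%) and chromosome 12 with 19 of 351 (5.41%). The lowest share was on chromosome 3, with 7 of 776 (0.902%), and chromosome 1, which listed the most circRNAs, had 10 of 854 (1.17%). On the unplaced sequences, KB010019.1 had 6, and KB009921.1 and KB009977.1 had 5 each. The sequence GU295658.1 listed 2 circRNAs in all, both without a feature and both with 2 reads in Macheng black 3 alone. Both strands were used about equally, with 204 on the plus and 209 on the minus strand.

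**Figure D2:**
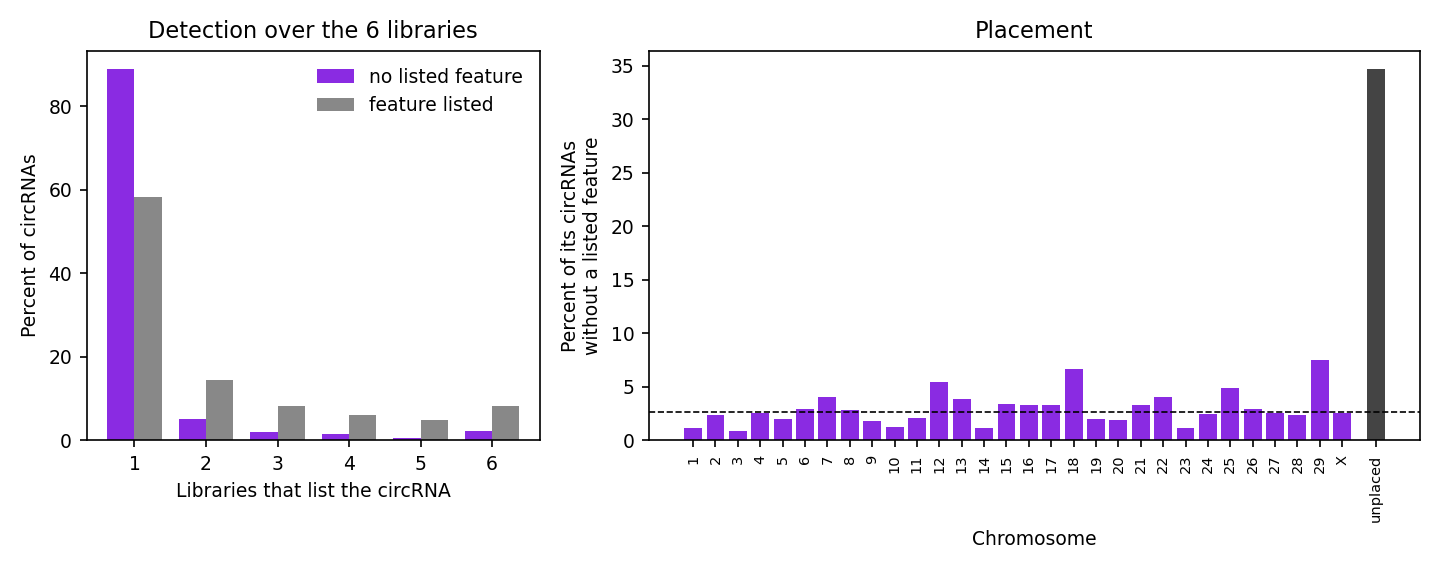
Left, percent of circRNAs (y axis) listed in 1 to 6 libraries (x axis) for those without and with a listed feature. Right, percent of the circRNAs of each chromosome, and of all unplaced sequences together, that have no listed feature, with the dashed line at 2.67%, the share over all chromosomes; chromosome 29 reaches 7.52% and unplaced sequences 34.6%.

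Most stood alone. Joined by overlap on 1 strand, they fell into 389 of 8112 loci, of which 356 held a single circRNA and 13 held 2 or more without a feature. Within 10000 bases of another without a feature were 45 of the 413 (10.9%), and within that distance of a circRNA with a feature 115 (27.8%). Of the 13537 others, 1.54% had a circRNA without a feature within 10000 bases and 70.4% had one with a feature. Leaving out the chromosome 29 region described next, 8.0% of the remaining 400 without a feature still had another within that distance. Shared ends followed the same order. In 22 of the 413 (5.33%) an end was also that of another without a feature, against 15 of the others (0.111%). In 12 (2.91%) it was that of a circRNA with a feature, against 50.5% of the others.

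The densest group lay on the minus strand of chromosome 29, where 13 circRNAs without a feature fell between 41461284 and 41468006. They formed the loci with the most members, 6 from 41464492 to 41465831 and 4 from 41466765 to 41467584. In 12 of the 13 there were 2 reads in 1 library, and the exception, at 41466765 to 41466962, had 4 reads in the second Macheng black library and 5 in the third. Summed over the 13, the Boer libraries had 2, 6 and 6 reads and the Macheng black libraries 2, 6 and 11. The plus strand of the same region listed 34 circRNAs, each with a feature, from 41461140 to 41467898. Those 34 had a median of 2 back-splice reads and summed to 128, next to a median of 26099 non-junction reads. The highest non-junction count of any entry in the 6 libraries, 398846, was among them. Back-splices of few reads were listed on both strands of this region. All non-junction reads listed there belonged to plus-strand entries. That follows from how the circRNAs were chosen, since all 13 on the minus strand lacked a feature and no such entry has non-junction reads. The contrast between the strands in non-junction reads therefore has no test.

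**Figure D3:**
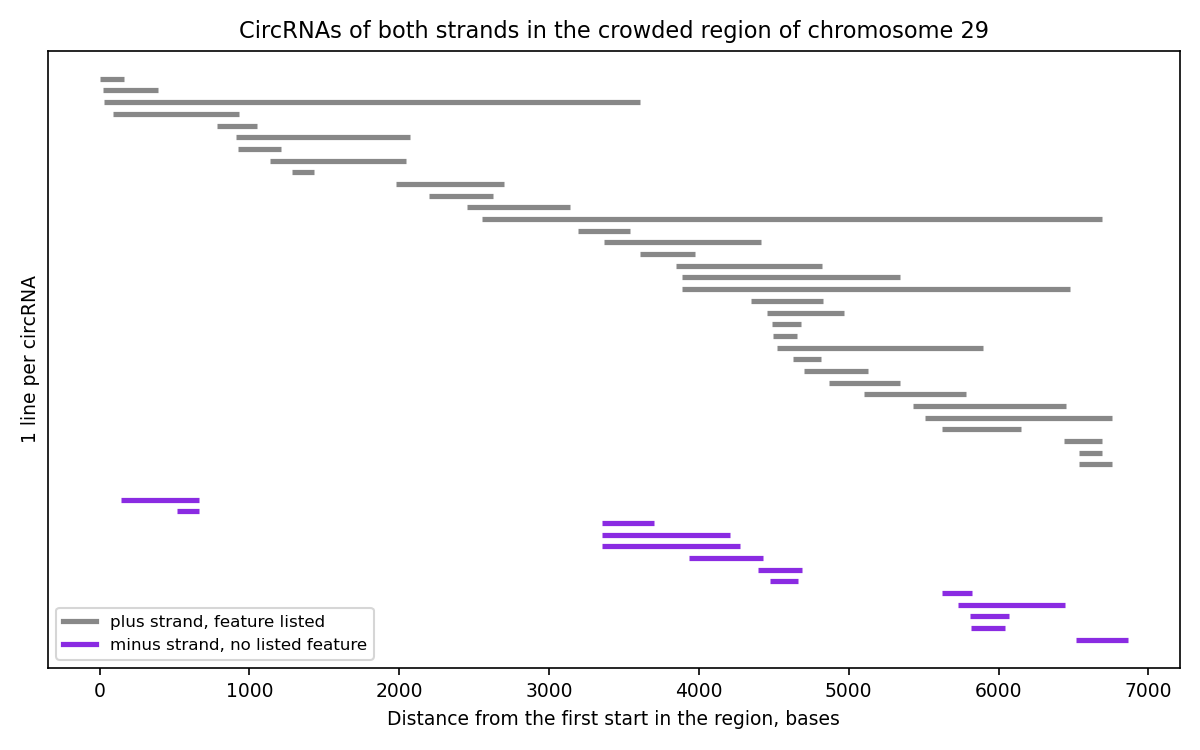
Each line is 1 circRNA, drawn to scale from its first to its last base, with the distance in bases from the first start in the region on the x axis. The 34 plus-strand circRNAs with a feature (grey) cover the region, and the 13 minus-strand circRNAs without one (purple) lie across from them.

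The other loci with the most circRNAs without a feature held 4 or 3 of them. On scaffold KB009921.1, 4 overlapped on the minus strand from 1722649 to 1748800, and 3 of these started at the same base, 1740988. The ring that ended at 1748800 had 14, 6 and 6 reads in Boer and 5, 12 and 0 in Macheng black, and that ending at 1747459 had 11, 4 and 4 in Boer and 3, 2 and 2 in Macheng black. In CPM the first was highest in Macheng black 2 and the second in Boer 1, and no feature was listed there in any library. On KB009977.1, 3 rings lay between 342314 and 352960, of which the outermost had 20, 0 and 3 reads in Boer and 0, 0 and 4 in Macheng black. That scaffold's listed genes, SNRPN and SNURF, lie nearer its start. On chromosome 4, 3 overlapped in a locus of 8 circRNAs from 66002326 to 66093494, and those starting at 66002487 and 66002499 had 2 reads each in 1 library. The 3 rings across from DENND1B on chromosome 16 share a locus of their own. In all, 5 of the 413 had another without a feature within 20 bases at both ends, which can split the reads of 1 ring between entries. At chromosome 11 the Boer libraries had 10, 0 and 0 reads of the ring from 23751652 to 23754725, and Boer 3 had 4 reads of a form that ended 3 bases earlier, at 23754722.

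Short spans set these circRNAs apart from the others. The median distance between the ends was 391 bases over the 413 (quartiles 193 and 1020) and 6090 bases over the 13537 others (quartiles 2025 and 13196). A span under 200 bases was found in 109 (26.4%), against 1.29% of the others, and one over 10000 bases in 26 (6.30%), against 34.5%. The shortest were 4 rings of 150 bases, on chromosomes 28, 29, 5 and 8, which is also the shortest span of any listed circRNA. The longest covered 56697 bases of the minus strand of scaffold KB009929.1, from 132312 to 189008, with 6 reads in Boer 3 alone. In each library the median span was lower than that of the others, with a mean difference of -6016 ± 319 bases (SD, n = 6, lower in 6 of 6; exact sign-flip permutation test, two-sided, p = 0.0312). This difference did not hold against circRNAs with few non-junction reads. Compared with circRNAs of 1 to 5 non-junction reads in the same library, a class added after the data were seen, the mean difference was -121 bases (exact sign-flip permutation test, two-sided, p = 0.156). The rule picks entries with 0 non-junction reads, and span moved with non-junction reads over all entries, so span is not independent of how the circRNAs were chosen.

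Detection was sparse. A single library listed 367 of the 413 (88.9%), 21 were listed in 2, 8 in 3, 6 in 4, 2 in 5 and 9 in all 6. Of the others, 58.4% were listed in 1 library and 8.30% in 6. With exactly 2 reads over all libraries there were 300 (72.6%), against 38.7% of the others. At matched totals the gap was smaller in percentage points. Of those with 4 to 6 reads in all, 61.9% of 42 were listed in 1 library, against 45.0% of 2484 others. With 7 to 20 reads, 13.3% of 15 were listed in 1 library, against 6.90% of 2478 others. Of those with over 20 reads, 52.9% of 17 were listed in all 6, against 56.3% of 1967. A circRNA listed in several libraries had to lack a feature in each of them to be counted here, which favours those seen once. Mean back-splice reads per listed circRNA were between 3.88 and 5.15 in the 6 libraries, against 7.08 to 10.8 for the others. The mean difference was -3.95 reads ± 1.14 (SD, n = 6, lower in 6 of 6; exact sign-flip permutation test, two-sided, p = 0.0312). It was -1.96 reads against circRNAs with 1 to 5 non-junction reads (p = 0.0625 by the exact sign-flip permutation test). Among circRNAs with at least 5 reads in the library, the difference from all others was -1.46 reads and did not hold (p = 0.344 by the same exact test).

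Back-splice reads made up all reads counted at these circRNAs, since the listed non-junction count was 0 by the link described above. The sources used here do not say whether such a 0 means no reads or no counting without a feature. For the others, the share of back-splice reads, counted as 2 × junction reads over that value plus the non-junction reads, had medians between 3.20% and 5.06% in the 6 libraries. This contrast comes from the way the circRNAs were chosen and has no test.

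Few rings held a large share of the reads. The 9 listed in all 6 libraries held 44.9% of the 2414 back-splice reads, and the 12 with the highest mean level held 49.8%. By mean CPM (back-splice reads scaled to a common library size), the first of the 12 stood at rank 60 of all 13950 circRNAs and the last at rank 1260. Of the 12, 6 were on unplaced scaffolds.

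The ring at chromosome 4, 66002483 to 66002663, spans 181 bases and was the steadiest of them. It had 99, 31 and 77 reads in Boer 1, 2 and 3 and 57, 57 and 40 in Macheng black 1, 2 and 3. The Boer mean was 1464 ± 375 CPM and the Macheng black mean 1453 ± 182 CPM (n = 3 libraries per breed, SD), and its highest library was 1.7 times its lowest. It shares its start with circRNAs that carry a feature and reach to 66009098 and 66016253. Its listed non-junction count was 0 in all 6 libraries, as for every circRNA chosen here. Scaffold KB012936.1 gave a second steady ring of 671 bases on the minus strand, 6549 to 7219, with 19, 13 and 20 reads in Boer and 15, 12 and 15 in Macheng black. Its Boer mean was 402 ± 94.7 CPM and its Macheng black mean 417 ± 154 CPM (n = 3 libraries per breed, SD). The breeds overlapped in both.

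The most abundant by mean CPM was the ring of 736 bases on the minus strand of scaffold KB011332.1, 12955 to 13690, the only circRNA listed on that scaffold. It had 16, 31 and 30 reads in Boer and 30, 148 and 79 in Macheng black, which scales to 247, 1061 and 702 CPM for Boer libraries and to 837, 3235 and 3006 CPM for Macheng black ones. Macheng black 2 and 3 were high, and Macheng black 1 lay within the Boer range. KB010937.1, 76922 to 87727, gave a long ring of 10806 bases with 11, 11 and 12 reads in Boer and 18, 18 and 13 in Macheng black. Each Macheng black library was above each Boer library in CPM, 464 ± 60.7 against 276 ± 103 (SD, n = 3 each). With the library scaling of the locus test below, the same reads overlapped, at 413.9 CPM in Boer 2 and 375.5 in Macheng black 2. At chromosome 29, 39011769 to 39012035, a ring of 267 bases had 7, 8 and 9 reads in Boer and 14, 9 and 7 in Macheng black, with overlap between the breeds.

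The other 7 of the 12 were at lower mean levels. The ring of 190 bases on KB010324.1, 7692 to 7881, had 4, 8 and 16 reads in Boer and 7, 3 and 10 in Macheng black. At chromosome 10, 357218 to 357465, Macheng black 2 had 23 reads and the other 5 libraries 3 to 8. At chromosome 17, 71460451 to 71460852, Boer 3 had 19 reads and the other 5 libraries 2 to 6. In the last 2 a single library stood above the rest, while the KB010324.1 ring was about level in Boer 3 and Macheng black 3, at 374 and 381 CPM. The ring of KB009921.1 ending at 1748800, described above, was not listed in Macheng black 3, and that at chromosome 5, 5030660 to 5033785, had 12, 3 and 12 reads in Boer and 0, 5 and 7 in Macheng black. The Macheng black libraries had 4, 9 and 11 reads of the chromosome 11 ring from 23751652 to 23754725. KB010183.1, 66216 to 66383, had 0, 3 and 6 reads in Boer and 11, 0 and 7 in Macheng black. A 0 means that the circRNA was not listed, that is, 0 or 1 read or not found, because listing starts at 2 back-splice reads.

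**Figure D4:**
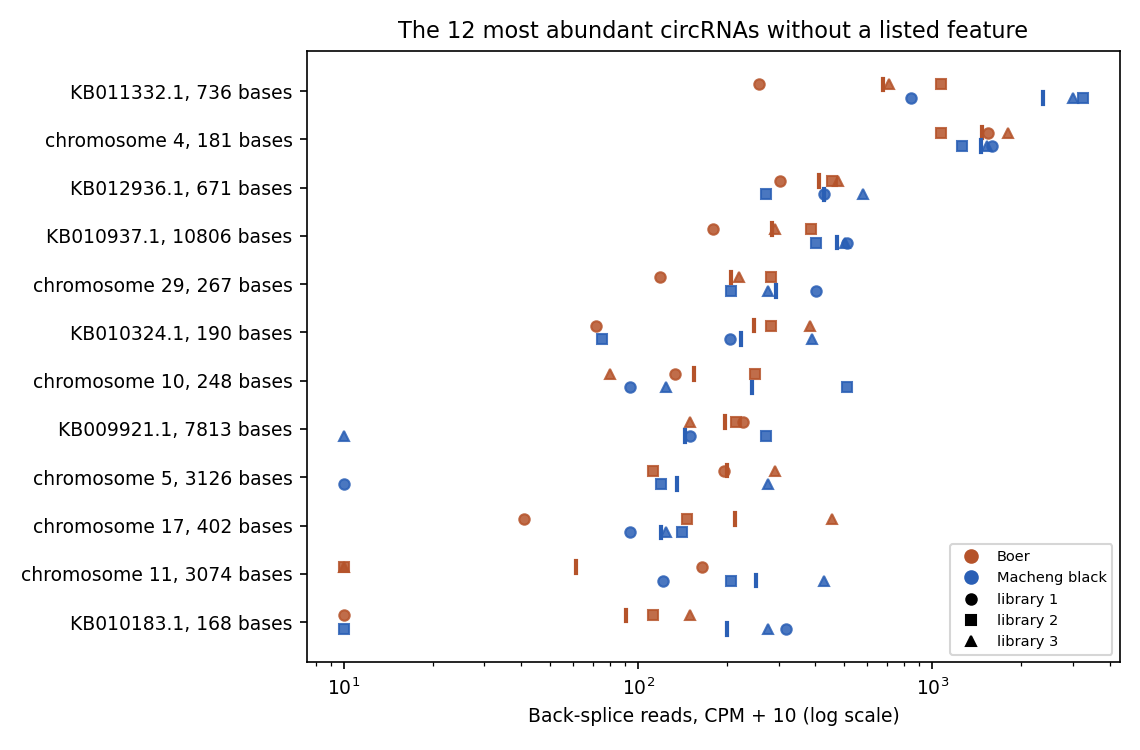
Back-splice reads as CPM plus 10 (log axis) for the 12 most abundant circRNAs without a listed feature, named by sequence and span; each symbol is 1 library, and the vertical bars are the breed means (n = 3). The chromosome 4 ring lies between 1061 and 1802 CPM in all libraries, and the KB011332.1 ring between 247 and 3235 CPM; points at 10 are libraries that did not list the ring.

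The breed comparison asks which circRNAs of the follicle before ovulation are at different levels in Boer and Macheng black goats. As a class, circRNAs without a feature did not differ detectably in number or share between the breeds. Boer 1, 2 and 3 listed 103, 60 and 96 of them, and Macheng black 1, 2 and 3 listed 84, 99 and 79. As a share of all listed circRNAs the Boer mean was 1.68% ± 0.197 and the Macheng black mean 2.03% ± 0.288 (n = 3 libraries per breed, SD), with p = 0.2 by a two-sided exact permutation test. With 3 libraries per breed this test cannot give a p below 0.1, so it does not show that the breeds are alike. The difference of -0.355 points was -0.0086 for circRNAs outside every listed exon and intron, -0.17 with at least 5 reads in the library and -0.19 without Macheng black 3. Other settings left it about as large or larger. It was -0.359 with reads drawn down to the smallest library (thinned; p = 0.5, exact permutation test). On chromosomes alone it was -0.368 (p = 0.1, exact permutation test), and without Macheng black 2 it was -0.456. Boer 1, the library with the most reads, was lowest at 1.47% (Clopper-Pearson 95% bounds of 1.20% and 1.78%), and Macheng black 3, with the fewest, was highest at 2.36% (bounds of 1.87% and 2.93%). Such intervals cover counting error only. Macheng black 3, the smallest library, kept all its reads under thinning and stayed at 2.36%. The thinned shares then fell in order of reads per library. They were 1.64% in Boer 2, 1.57% in Macheng black 1, 1.46% in Boer 3, 1.18% in Macheng black 2 and 0.938% in Boer 1. Thinning drops entries left with under 2 reads, so it cannot separate a breed difference from depth here. In whole follicles, fewer cells of a type and less RNA per cell cannot be told apart.

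By back-splice reads, the Boer mean share was 0.889% ± 0.187 and the Macheng black mean 1.17% ± 0.312 (n = 3 libraries per breed, SD), with p = 0.4 by a two-sided exact permutation test. The difference of -0.280 points went to -0.115 without the KB011332.1 ring and to -0.102 without Macheng black 3. It was -0.288 after thinning to the smallest library (p = 0.6, exact permutation test) and -0.393 without Macheng black 1. Median spans were 530, 411 and 556.5 bases in Boer and 378.5, 410 and 271 bases in Macheng black, without overlap but with 1 base between the nearest libraries (p = 0.1 by a two-sided exact permutation test). On chromosomes alone, without unplaced sequences, the difference was 68.3 bases in place of 146 (p = 0.3, exact permutation test), and with at least 5 reads in the library it was 398 bases (p = 0.9, exact permutation test). Of the 413, 188 were listed in Boer only, 190 in Macheng black only and 35 in both breeds. None was listed in all 3 libraries of a breed and no library of the other, which held for 0.459% of all circRNAs towards Boer and 0.251% towards Macheng black.

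Of the 413, 25 (6.05%) had at least 2 reads in at least 3 libraries and could be tested, while 26.6% of all circRNAs, 3712, did so. A circRNA passes this filter if it is well listed in 1 breed alone. None of the 25 differed between the breeds in edgeR's quasi-likelihood test at an adjusted p under 0.05, a level that 0.35% of all tested circRNAs reached. At an unadjusted p under 0.05 edgeR found 1 of 25, against 5.23% of all tested, and DESeq2 1 of 25, against 3.04%, with 0 past its adjusted threshold. Log2 fold changes (Boer over Macheng black) were above 0 in 11 and below 0 in 14, with a median of -0.19 against 0.11 over all tested. In CPM, the breeds did not overlap in 2 rings, 1 with Boer above and 1 with Macheng black above, where 6.92% and 4.8% of all tested circRNAs did so. The first was the ring of KB009921.1 ending at 1747459, at 134 ± 38.3 against 67.9 ± 21.2 CPM (SD, n = 3 each), and the second that of KB010937.1. Their log2 fold changes were 0.98 ± 1.19 and -0.79 ± 0.50 (SE; edgeR adjusted p = 0.9998 for both).

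**Figure D5:**
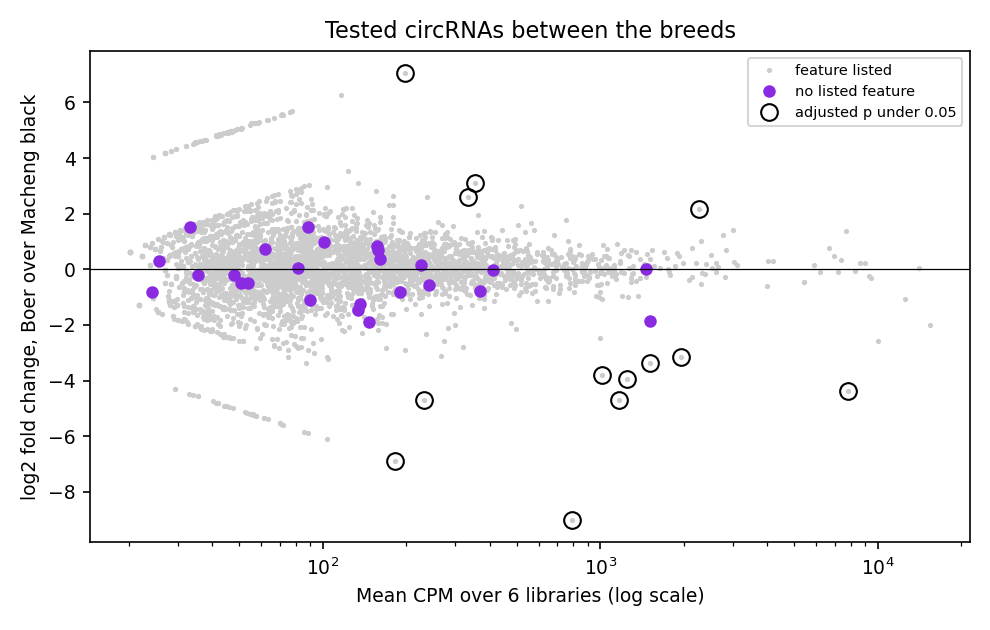
Log2 fold change (y axis, Boer over Macheng black) against mean CPM over 6 libraries (log axis) for the 3712 tested circRNAs, with the 25 without a listed feature in purple and circles around those past an adjusted p of 0.05. None of the purple points is circled; the lowest of them at high CPM is the KB011332.1 ring, at -1.86.

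The ring with the smallest p was that of scaffold KB011332.1. The Boer libraries averaged 670 ± 408 CPM, and those of Macheng black were 3.52-fold higher at 2360 ± 1324 CPM (n = 3 libraries per breed, SD). By edgeR the log2 fold change was -1.86 ± 0.50 (SE) with an adjusted p of 0.139. Over 11 alternatives the adjusted p ranged from 0.000815, without Macheng black 1, to 0.987, and 2 passed, the second with no filter on low counts (adjusted p = 0.0482). When overlapping circRNAs were summed into loci, its reads stayed the same but it passed among 2934 loci (edgeR adjusted p = 0.00918, log2 fold change -1.86 ± 0.41, SE). That call held in 6 of 11 alternatives and was lost when Boer 1, Macheng black 2 or Macheng black 3 was left out, with DESeq2, and with the filter at 5 reads (adjusted p from 1.44e-06 to 0.512). The difference rests on Macheng black 2 and 3, and Macheng black 1 lay below Boer 2.

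The other 9 rings named for the smallest p were further from the threshold. Towards Macheng black they were those of chromosome 11 (log2 fold change -1.90 ± 1.01, SE), KB010937.1, chromosome 29 from 48049077 to 48060007, and KB010183.1. The ring at chromosome 29 had 12, 0 and 0 reads in Boer and 14, 0 and 6 in Macheng black. Among listed parts of genes with a usable identifier, the nearest to that ring, 9904 bases away, is of PTDSS2, a phosphatidylserine synthase. Towards Boer they were the outermost ring of KB009977.1 (1.54 ± 1.48, SE), that of chromosome 17 (0.85 ± 0.89), that met by ISM1 on chromosome 13 (1.53 ± 1.75), and those of KB009921.1 ending at 1747459 and of chromosome 5. Each had an edgeR adjusted p of 0.9998. The chromosome 17 value turned to -0.41 without Boer 3 and that of KB009977.1 to -0.33 without Boer 1, the libraries with 19 and 20 of their reads.

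Among the 40 tested loci that held a circRNA without a feature, 2 passed the edgeR test, against 0.341% of all tested loci, and 22 of the 40 held no other kind. An unadjusted p under 0.05 was found in 4 of the 40, against 6.37% of all tested loci. Besides KB011332.1, the locus at chromosome 29, 48237442 to 48265156, was higher in Macheng black (log2 fold change of -2.61 ± 0.49, SE, with an adjusted p of 0.000866 by edgeR). Its Boer libraries had 230, 67 and 116 reads and those of Macheng black 93, 1317 and 529, and in CPM Macheng black 1 lay within the Boer range, so only Macheng black 2 and 3 were high, as for KB011332.1. Its ring without a feature, 48237442 to 48241882, gave only 2 of its reads, all in Macheng black 2, so the call is not one of that ring. It was lost in 5 of 11 alternatives, among them DESeq2, a block on the replicate number, and leaving out Boer 2 or Macheng black 3 (adjusted p up to 0.493). The 3 rings across from DENND1B were listed in Macheng black alone, with 2, 7 and 2 reads over the locus, and did not pass (edgeR adjusted p = 0.749). In 1 of the 40 loci, this one, each Macheng black library was above each Boer library, against 5.04% of all tested loci. In 2 of the 40, each Boer library was above each Macheng black library, against 7.7% of all tested loci. These were the loci of ARHGAP10 and ISM1, which also hold circRNAs with a feature and did not pass (edgeR adjusted p = 0.104 and 0.998).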

How the data were processed

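The submitters' processing notes name Bowtie2 2.0.6 and TopHat2. Neither the circRNA caller and its thresholds nor the build and annotation were given in the sources used here. The deposited tables hold whole-number counts of back-splice (junction) and non-junction reads, not normalized per the file headers and values. Other deposited values are positions and lengths in bases; full length equalled end minus start in all entries, so 1 was added to starts. Positions are on the files' own sequences.

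CircRNAs were matched by sequence, start, end and strand, and an unlisted circRNA entered tests as 0. Of 829 gene identifiers, 27 listed on several sequences or with a part over 1 Mb were set aside; the others were named by identifier from a table of ARS1.2, used for names only. A circRNA entered edgeR if 3 or more libraries had 2 or more of its reads: edgeR 4.0.16 (R 4.3.3; quasi-likelihood test, TMM, Benjamini-Hochberg at 0.05), with library sizes of all listed back-splice reads. Loci were summed from circRNAs overlapping on 1 strand. Library values were compared by exact permutation tests (scipy 1.17.1, Python 3.11.15). The labels do not say that libraries of 1 number are paired. They name 3 goats per breed, and each library was taken as 1 of them. For Boer 2 the code in the description differs in its last digit from that of the file recorded for it, so which Boer library the file holds is uncertain. DESeq2 1.42.0 was an alternative. One read was worth 15.5 to 38.1 CPM. Thinning drew 23480 reads per library 20 times. On simulated counts the circRNA test recovered 3% of 4-fold and 30% of 16-fold changes, and the locus test 9% and 53%.

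Named circRNAs were the 12 highest by mean CPM, the 5 smallest p in each direction, the 4 largest loci with ties, and the longest and shortest; planned tests of the back-splice share were dropped, since it is 100% by the rule. The members and lists were chosen with earlier results of these data known. No genome was used, so no sequence is shown.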

Additional observations from a re-analysis of the deposited data

How the results depend on the processing

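Under 11 alternatives each, the count of circRNAs without a feature called between the breeds stayed at 0 except with no filter on low counts (1). It ranged from 0 to 1 when a library was left out, with 1 without Macheng black 1. The count of called loci holding one, 2, went to 0 with at least 5 reads in 3 libraries and to 1 with DESeq2 and with the replicate block, and to 3 with RLE size factors and with no filter; it ranged from 0 to 2 without single libraries. The replicate block kept the circRNA count at 0, with 11 calls over all circRNAs against 13. Same-numbered libraries did not deviate together (correlations of -0.017, -0.034 and 0.016), so the numbers were not taken as pairs. With no filter 35 circRNAs were called over all, with DESeq2 8 and with at least 5 reads 2. Against circRNAs with 1 to 5 non-junction reads, chosen after seeing the data, the span difference was -121 bases and the difference in mean reads -1.96. With at least 5 reads in the library, the difference in mean reads from all others was -1.46, and neither of these mean-read values passed. Leaving out a library left 5, which cannot give a p below 0.0625: the span difference then ranged from -6110 to -5933 bases, that in mean reads from -4.23 to -3.58 and that in the share on unplaced sequences from 16.2 to 18.6 points. The last held at 52.9 points with at least 5 reads, 49.6 outside every listed part and 15.8 against others with 1 to 5 non-junction reads. The breed differences in shares and span kept their sign. Thinning to the smallest library left the share differences at -0.359 points of circRNAs and -0.288 points of reads, against -0.355 and -0.280 as reported. The thinned shares of circRNAs followed the order of library depth, so thinning does not separate breed from depth. The span difference went from 146 to 228 bases with thinning. Several other settings changed the size of these differences, as given beside them. Log2 fold changes of uncalled circRNAs changed sign as follows. For chromosome 4 they were -0.074 (RLE), -0.018 (at least 5 reads), -0.071 (DESeq2) and -0.013 (block), and KB012936.1 went to 0.016 with no filter. Leaving out single libraries gave -0.12 (Boer 3) to 0.20 (Boer 2) for chromosome 4, -0.27 (Macheng black 2) to 0.28 (Macheng black 3) for KB012936.1, -0.35 (Boer 3) to 0.89 (Macheng black 3) for KB010324.1, -1.27 (Boer 2) to 0.53 (Macheng black 2) for chromosome 10, -0.073 (Macheng black 3) to 1.31 (Macheng black 2) for KB009921.1 ending at 1748800, -0.41 (Boer 3) to 1.41 (Boer 1) for chromosome 17, and -0.33 (Boer 1) to 5.57 (Macheng black 3) for KB009977.1; the cause was not tested. Alternatives for the back-splice share were not run. Listing starts at 2 reads, so changes near 1 read are not detectable.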
